A study of Mus musculus with 92 samples.

Results

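The data described here compare injured with control tibialis anterior (TA) muscle, a shin muscle that lifts the foot, 10 h after a freeze injury. They are 10 of the 80 libraries with values in the series, chosen by their time point alone: the 5 injured left legs and the 5 control right legs of animals 1 to 5 at 10 h. All animals were male C57BL/6J mice of 10 weeks, all under the same anesthesia and analgesia, and in each a cold steel probe was laid on the exposed left TA muscle while the right TA muscle was left uninjured. The control is therefore the other leg of an injured, operated animal and not the muscle of an untouched one. RNA with a poly-A tail was sequenced from a homogenized portion of each muscle, so that fibers, vessels, connective tissue and blood cells were read together. In such bulk RNA, fewer cells of a type and less RNA per cell cannot be told apart. The study follows injured muscle over several weeks, and this time point lies between those at 3 h and 24 h.

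As background, freezing bursts the membranes of muscle fibers under the probe, and the contents that leak out act as alarm signals on fibers at the edge, on fibroblasts, on vessels and on resident macrophages. These cells first transcribe immediate early genes, the transcription factors of the Fos, Jun and Egr families that need no new protein to be switched on, and then genes for chemokines, which draw neutrophils and later monocytes out of the blood. Satellite cells, the stem cells of muscle, are activated in the same hours and divide later. The freeze injury of TA muscle is known for regenerating nearly completely once the debris has been cleared.

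Levels are given in FPKM, which scales fragment counts by transcript length and by the mapped fragments of the library, and are listed for animals 1 to 5 in that order. Differences are between the mean of the injured and the mean of the control legs on the scale of log2(FPKM + 0.1), with their standard error (SE), and n is 5 legs a side throughout. Of the 23811 genes in the table, 9998 had a mean of at least 1 FPKM in either group and were tested. A gene with a control mean under 1 FPKM was thus tested only where its injured mean reached 1 FPKM. Such a gene could hardly be called as fallen. In every list below that holds such genes, the lack of falls and the size of the median follow in part from this filter. A gene is said to have risen or fallen where limma's p-value, adjusted by Benjamini-Hochberg over the 9998 genes, was under 0.05 and the difference was at least 2-fold. By this rule 1171 genes (11.7% of those tested) rose and 52 genes (0.52%) fell. The 5 injured legs all lay above the 5 control legs for 25.1% of the genes and all below for 3.12%.

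The table gives no read counts, so the depth of a library is unknown. Its FPKM sums were 350761 to 397823. Injured legs had 9540 to 9964 genes above 1 FPKM and control legs 8757 to 9285, without overlap, a difference of 735.8 genes (9741 ± 191 against 9006 ± 212, SD; exact permutation test, two-sided, p = 0.00794, the smallest that 5 against 5 can give). Paired by animal, an exact sign-flip permutation test gave p = 0.0625, the smallest that 5 pairs allow. The median difference over all tested genes was 0.18. Scaling by quantiles or by the upper quartile of each library moved that median by -0.30 and -0.31, and with it the share of the called genes that were higher went from 95.7% to 78.4% and 82.4%. Directions of less than about that size therefore rest on the scale. Among the genes named below the direction of Pecam1, Mbp, Slc30a1, Mtf1, Sod1, Chrna1 and Tnnt3 turned under at least 1 of the scalings. Of the genes named below as risen, Csrp3, Csf1r, Cldn5, F3, Col1a1, Atp2a2, Hif1a, Mcm3 and Pcna lost the call under both scalings, Isg15, Mcm6 and Sbsn under quantile scaling and Cryab and Cav3 under upper quartile scaling. A pseudocount of 1 in place of 0.1 ended the calls of 22 named genes of low level or small difference, among them Ppara, Cd163, Ptprc, Icam1, Oasl2, Hspa1b, Hk1, Pfkp and Acot11.

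The difference between the legs was not of the same extent in all animals. A portion of each muscle was sequenced, and how much injured tissue each portion held was not tested. Over the 1171 genes that rose, the median difference between the 2 legs of an animal was 2.05, 1.04, 1.73, 2.03 and 1.31 in animals 1 to 5, and over the 52 that fell it was -1.6, -0.47, -1.5, -1.51 and -0.89. Injured leg 2 was the lowest of the 5 injured legs for 756 of the 1171 genes and injured leg 5 for 329. These genes were chosen on the same legs, so the values describe the order of the animals and test nothing. Without injured leg 2 the counts were 1371 and 79.

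**Figure D1:**
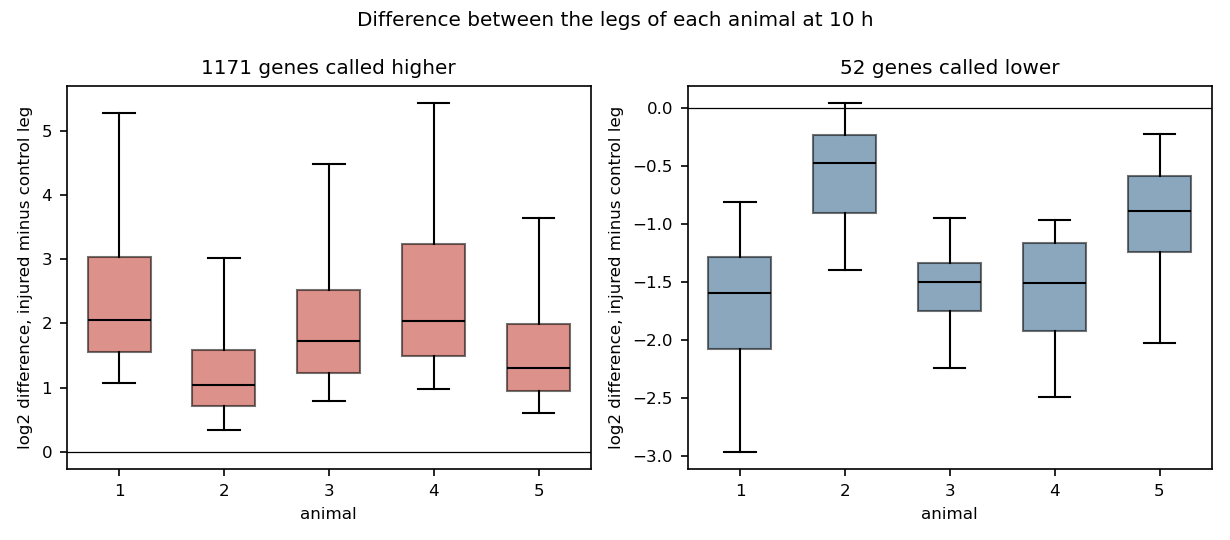
Difference between the injured and the control leg of each animal (log2 scale, y axis) for the genes that rose (left) and fell (right), animals 1 to 5 on the x axis. Boxes span the middle quartiles with the median as a line and whiskers reach the 5th and 95th percentiles. The medians of animals 2 and 5 lie closest to 0 in both panels.

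The largest rises among genes whose groups did not overlap were those of Rrad and Ankrd1, both genes of stressed muscle fibers. Of the 18 listed genes for stress and sarcomere-associated proteins 10 rose and 1 fell, with a median difference of 1.93 against 0.18 over all tested genes. Rrad, a small GTP-binding protein of muscle that restrains calcium channels (chr8:107151966-107155221 in mm9, the build of all gene positions here), had the largest rise of any gene whose injured and control legs did not overlap. Its levels were 312, 83, 222, 169 and 68.6 FPKM in the injured legs and 0.664, 0.524, 1.05, 0.263 and 0.298 FPKM in the control legs. Injured legs 2 and 5 were the lowest of the 5 but stood far above every control leg, and the difference was 7.92 ± 0.43 (limma, adjusted p = 2.47e-06). Ankrd1, a titin-binding ankyrin repeat protein that responds to stretch (chr19:36186455-36194334), reached 1253, 154, 1353, 1022 and 376 FPKM against 5.24, 5.47, 9.93, 4.15 and 3.01 FPKM, a difference of 6.91 ± 0.56 (limma, adjusted p = 1.95e-05). Injured leg 2 was again the lowest of the injured legs. Xirp1, an actin-binding protein that gathers at sites of fiber damage, had 494, 37, 216, 254 and 57.4 FPKM after injury and 9.61, 9.18, 11, 10.4 and 7.48 FPKM without it. Its control legs lay close together while its injured legs spread widely, and it rose by 3.89 ± 0.59 (limma, adjusted p = 0.000686).

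Other members of this list moved in the same direction at lower fold. Flnc, the filamin of the Z-disc, was at 455, 95.2, 307, 365 and 157 FPKM in injured and 33.8, 42.4, 33.7, 41.8 and 34.3 FPKM in control legs, a rise of 2.68 ± 0.36 (limma, adjusted p = 0.000359). Klhl40, a kelch protein that stabilizes thin filaments, rose by 2.68 ± 0.38 (limma, adjusted p = 0.000525), and Tnfrsf12a, the receptor of the cytokine TWEAK, by 3.58 ± 0.49 (limma, adjusted p = 0.000421). Neither overlapped between the groups, with injured leg 2 lowest in each. Csrp3, a stretch-responsive LIM protein of the Z-disc, had 276, 127, 331, 863 and 171 FPKM in injured legs but 174, 346, 37.9, 21.7 and 14.6 FPKM in control legs. Control legs 1 and 2 lay within the injured range and control legs 3 to 5 far below it, so that the groups overlapped and the call (limma, adjusted p = 0.0484) was lost when the animal was blocked (limma, adjusted p = 0.0646) and when any of injured legs 1, 3, 4 and 5 or control legs 3, 4 and 5 was left out (limma, adjusted p = 0.0514 to 0.114). Fhl1 had the same split among its controls, 1362, 1803, 464, 415 and 329 FPKM, and did not pass the test. Ky, a protein of the Z-disc needed for fiber upkeep, was the only listed member that fell, from 18.3, 16.6, 19, 35.8 and 32.8 FPKM in control legs to 4.41, 15.8, 3.95, 5.33 and 11.7 FPKM in injured legs (-1.71 ± 0.39, limma, adjusted p = 0.0047). Its highest injured leg, that of animal 2, was just under its lowest control leg, also that of animal 2.

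Immediate early genes were high in injured legs at 10 h. Of the 21 tested members of the list 18 rose and none fell, with a median difference of 2.78. Fosl1, a Fos family partner of Jun, had 28.3, 1.1, 13.9, 19.3 and 3.31 FPKM in the injured legs and at most 0.0213 FPKM in a control leg. All injured legs were above all control legs, with injured leg 2 the lowest of the injured (limma, adjusted p = 0.000182). Egr1, a zinc finger factor induced by serum and stress, was at 169, 15, 48.7, 71.3 and 7.28 FPKM against 0.794, 0.354, 0.943, 0.25 and 0.199 FPKM, a difference of 6.09 ± 0.73 (limma, adjusted p = 0.000213). The injured legs of animals 1 and 5 bounded a wide range that stayed clear of the controls. Atf3, a stress-induced repressor of the ATF family, had 168, 11.7, 127, 131 and 26.9 FPKM and 2.98, 1.95, 3.22, 1.29 and 0.324 FPKM, a rise of 5.22 ± 0.77 (limma, adjusted p = 0.00064). Junb had the smallest SE of these genes, with 40.8, 13.8, 49.7, 22.8 and 14.1 FPKM in injured and 1.11, 1.04, 1.63, 0.974 and 0.834 FPKM in control legs (4.38 ± 0.35, limma, adjusted p = 1.78e-05). Fos itself overlapped, because control leg 3 was at 4.0 FPKM while injured legs 2 and 5 were both at 3.78 FPKM. It rose by 4.09 ± 0.78 (limma, adjusted p = 0.00198). Jun and Jund were 0.79 and 0.76 higher, short of 2-fold, and Srf, the serum response factor that drives many of these genes, had 9.33, 9.58, 8.93, 10.7 and 11.4 FPKM in injured and 8.09, 8.57, 9.8, 13.4 and 11.8 FPKM in control legs, which overlapped fully.

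**Figure D2:**
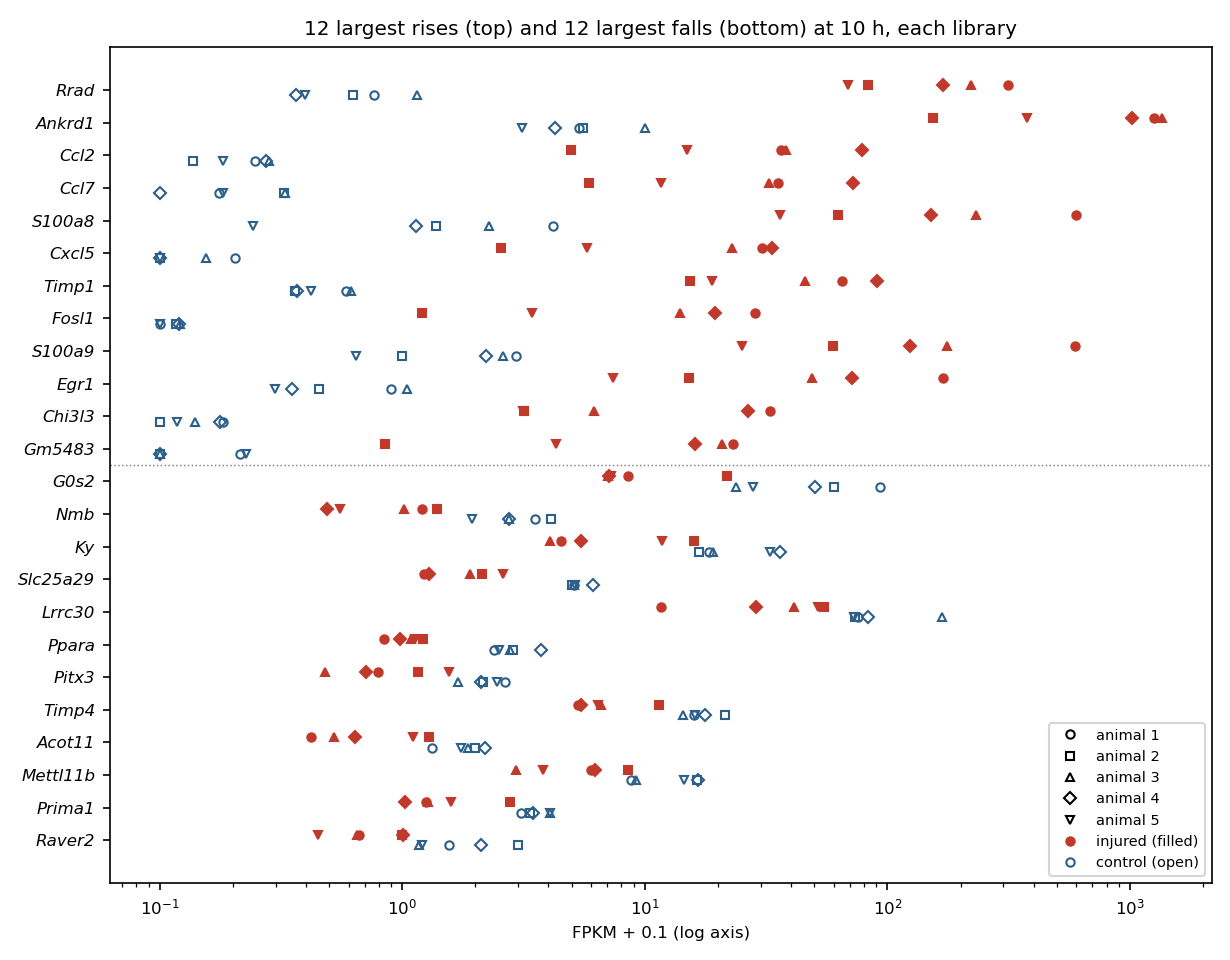
FPKM + 0.1 (x axis, logarithmic) of the 12 strongest rises and the 12 strongest falls among genes with no overlap between the groups, one row a gene. Filled symbols are injured and open symbols control legs, and the symbol shape marks the animal. Rises span up to 7.92 on the log2 scale and falls at most -2.29, and injured legs 2 and 5 are the nearest to the controls in the rises.

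Of the 12 largest rises 3 were chemokine genes, and 1, Gm5483, is a predicted gene, at 22.9, 0.751, 20.6, 16 and 4.19 FPKM in injured and 0.114, 0, 0, 0 and 0.126 FPKM in control legs (limma, adjusted p = 0.000419). Across the list of cytokines and chemokines, secreted proteins that steer leukocytes, 17 of 19 tested members rose and none fell, with a median difference of 3.57, and 7 further members (Csf2, Csf3, Il1a, Il11, Lif, Osm and Tnf) were below 1 FPKM in both groups. Members near 0 in control legs were tested only through their injured legs. The lack of falls and the size of the median therefore follow in part from the filter. Ccl2 (chr11:81849079-81850954) and Ccl7 (chr11:81859214-81861025), neighbors on chromosome 11 whose products draw monocytes through the receptor CCR2, had near-equal levels. Ccl2 was at 36.4, 4.88, 38.1, 78.8 and 14.8 FPKM in injured and 0.147, 0.037, 0.181, 0.174 and 0.0814 FPKM in control legs, a difference of 6.80 ± 0.60 (limma, adjusted p = 3.33e-05). Ccl7 was at 35.4, 5.8, 32.4, 71.7 and 11.5 FPKM in injured and 0.0744, 0.224, 0.229, 0 and 0.0824 FPKM in control legs (6.79 ± 0.60, limma, adjusted p = 3.36e-05). In both, injured leg 4 was the highest and injured leg 2 the lowest, without overlap with the controls. Cxcl5, a ligand of the neutrophil receptor CXCR2, had 30.1, 2.46, 22.8, 33.3 and 5.66 FPKM after injury and was listed at 0 in control legs 2, 4 and 5 (limma, adjusted p = 6.17e-05). The CXCR2 ligands Cxcl3 and Cxcl2 were listed at 0 in all 5 control legs and had 5.13, 0.719, 11.4, 8.17 and 1.42 FPKM and 2.24, 0.11, 4.69, 3.25 and 0.956 FPKM in the injured legs, with injured leg 2 lowest in both (limma, adjusted p = 0.000231 and 0.00164).

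Cxcl1, the fourth CXCR2 ligand of the list, was at 6.11, 0.978, 6.9, 7.1 and 2.29 FPKM in injured and 0.0295, 0.0593, 0.0363, 0.0699 and 0 FPKM in control legs (4.80 ± 0.49, limma, adjusted p = 8.49e-05). Il6, a cytokine that muscle and leukocytes both make, had 1.83, 0.383, 5.11, 2.4 and 0.901 FPKM against 0.124, 0.0498, 0.0305, 0.0294 and 0.0549 FPKM and rose by 3.42 ± 0.55 (limma, adjusted p = 0.000876). Both separated the groups in every leg. Il1b, the inflammasome-processed interleukin, reached 10.9, 0.535, 15.7, 9.43 and 2.08 FPKM with 0.0968, 0.0195, 0.0477, 0 and 0.0644 FPKM in controls (5.05 ± 0.75, limma, adjusted p = 0.000653), and Il33, an alarmin held in the nuclei of stromal cells, 9.66, 2.35, 7.85, 7.0 and 4.16 FPKM with 0.434, 0.762, 0.853, 0.715 and 0.45 FPKM in controls (2.97 ± 0.34, limma, adjusted p = 0.000158). The 2 members that did not pass were Cxcl12 (a difference of 0.45) and Il15, a cytokine made by muscle fibers. Il15 was lower in all 5 injured legs, 2.05, 3.03, 2.1, 2.52 and 2.78 FPKM against 5.61, 6.87, 3.41, 5.33 and 3.47 FPKM, but by -0.92, short of 2-fold. It passed as lower under either scaling and without control leg 3 or 5 (-1.04 and -1.03).

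The promoters of Cxcl1, Cxcl2, Cxcl3 and Il6 are shown because these genes rose together and a motif of NF-kappa B, a main inflammatory transcription factor, can be read in their letters. Each sequence is the 120 bases before the RefSeq transcription start on the plus strand of chromosome 5 (GRCm38.p6, not the build of the expression files), 5′ to 3′, with matches on either strand to GGG, any 2 bases and TTTCC in capitals.
Cxcl1, chr5:90891125-90891244: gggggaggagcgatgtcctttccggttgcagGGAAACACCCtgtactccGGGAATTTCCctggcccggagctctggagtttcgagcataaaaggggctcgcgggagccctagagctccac
Cxcl2, chr5:90903779-90903898: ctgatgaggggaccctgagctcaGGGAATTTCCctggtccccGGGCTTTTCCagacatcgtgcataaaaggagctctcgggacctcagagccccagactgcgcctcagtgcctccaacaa
Cxcl3, chr5:90785981-90786100: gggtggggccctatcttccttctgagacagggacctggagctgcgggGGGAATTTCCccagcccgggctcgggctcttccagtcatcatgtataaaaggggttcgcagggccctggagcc
Il6, chr5:30012994-30013113: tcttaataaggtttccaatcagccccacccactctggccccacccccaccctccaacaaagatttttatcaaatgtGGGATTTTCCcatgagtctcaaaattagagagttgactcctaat
Matches began 89 and 71 bases before the start in Cxcl1, 97 and 78 in Cxcl2, 73 in Cxcl3 and 44 in Il6. Of the 18 list members with a RefSeq promoter these 4 held the motif, against 242 of all 32851 promoters (0.737%) in windows of the same length. A match is a description of the letters and no evidence of binding, and the genes were chosen after their values were seen.

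Receptors and signaling proteins for these cytokines rose too. Of 18 tested genes for cytokine receptors and JAK-STAT signaling 11 rose and none fell (median 1.53). Stat3, the transcription factor downstream of the IL-6 family, had 69.4, 36, 74, 56.6 and 46.9 FPKM in injured and 7.66, 6.4, 10.2, 7.01 and 6.34 FPKM in control legs, a difference of 2.87 ± 0.20 that was large against the spread in every animal (limma, adjusted p = 7.00e-06). Osmr, the oncostatin M receptor, rose by 2.42 ± 0.25 (limma, adjusted p = 8.49e-05) and Il4ra, a chain of the IL-4 and IL-13 receptors, by 3.07 ± 0.34 (limma, adjusted p = 0.000123), both without overlap. Il1rl1, the receptor of IL-33, had 5.27, 0.565, 2.02, 8.44 and 0.504 FPKM and 0.0308, 0.0531, 0.019, 0.00915 and 0.0146 FPKM, with a spread of more than 10-fold among the injured legs (4.06 ± 0.68, limma, adjusted p = 0.0011). The shared chain Il6st (gp130) was 0.95 higher, short of 2-fold, though past it without injured leg 2, control leg 3 or control leg 4 (1.06, 1.04 and 1.00) and with library weights (1.06), while Lifr had 3.53, 3.92, 2.33, 2.87 and 3.5 FPKM in injured and 4.04, 3.9, 3.71, 5.03 and 4.22 FPKM in control legs.

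Genes that restrain inflammation rose as well, with 10 of 16 tested members up and none down (median 1.29; 6 and 8 up under quantile and upper quartile scaling). Socs3, which blocks signaling by gp130 receptors, was at 18.4, 10.3, 45.1, 19.3 and 10.8 FPKM in injured and 0.427, 0.206, 0.642, 0.305 and 0.255 FPKM in control legs (5.33 ± 0.38, limma, adjusted p = 7.78e-06). Injured leg 3 was the highest and the other 4 lay between 10.3 and 19.3 FPKM, all far above the controls. Il1rn, the IL-1 receptor antagonist, had 4.56, 0.544, 6.26, 4.76 and 1.09 FPKM in injured legs and was listed at 0 in all control legs but that of animal 2, at 0.0196 FPKM (limma, adjusted p = 0.000262). Dusp5, a phosphatase of nuclear ERK, was at 31.9, 1.22, 11.6, 12 and 3.04 FPKM against 0.0689, 0, 0.311, 0.0545 and 0.127 FPKM (5.24 ± 0.74, limma, adjusted p = 0.000477). Zfp36, which marks cytokine mRNAs for decay, rose by 2.18 ± 0.39 (limma, adjusted p = 0.00147). Tnfaip3, the ubiquitin editor A20, and Nfkbia, the inhibitor of NF-kappa B, did not pass, at 2.58, 0.753, 1.35, 1.44 and 0.547 FPKM against 0.56, 0.444, 0.521, 0.866 and 0.77 FPKM for Tnfaip3 and a difference of 0.61 for Nfkbia, though Tnfaip3 passed without injured leg 5 (limma, adjusted p = 0.0192).

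Markers of neutrophils, the first leukocytes to enter injured tissue, were high in every injured leg but to very different degrees. Of 18 tested markers 15 rose and none fell (median 3.61). As with the chemokines, markers with a control mean under 1 FPKM were tested only through their injured legs. The summed level of the list was 1714, 180.1, 668, 365 and 87.7 FPKM in the injured legs against 16.5, 6.97, 24.4, 6.32 and 3.15 FPKM in the control legs. S100a8 and S100a9, the subunits of calprotectin, made up most of that sum in every injured leg. S100a8 (chr3:90472993-90473956) was at 599, 62.2, 233, 151 and 35.8 FPKM in injured and 4.09, 1.28, 2.18, 1.04 and 0.141 FPKM in control legs (6.72 ± 0.82, limma, adjusted p = 0.000231). Its partner S100a9 was at 595, 59.7, 176, 123 and 25.1 FPKM against 2.85, 0.899, 2.49, 2.1 and 0.541 FPKM (6.15 ± 0.73, limma, adjusted p = 0.000188). For both genes injured leg 1 was the highest and injured leg 5 the lowest, clear of all controls. Csf3r, the receptor of G-CSF, and Cxcr2, the receptor of the chemokines above, rose by 3.78 ± 0.66 (limma, adjusted p = 0.00137) and by 3.41 ± 0.70 (limma, adjusted p = 0.00298).

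The 3 markers that did not pass were granule genes transcribed by immature neutrophils of the bone marrow. Camp (cathelicidin) had 113, 19.3, 0.0686, 0.248 and 0.115 FPKM in the injured legs, Ngp (neutrophilic granule protein) 59, 6.96, 0.0548, 0 and 0.115 FPKM and Elane (neutrophil elastase) 4.49, 1.15, 0, 0.0334 and 0 FPKM. All were high in the injured legs of animals 1 and 2 alone and at or near 0 elsewhere, at most 0.162 FPKM in a control leg. This split did not follow S100a8 and S100a9, of which injured leg 2 had less than injured legs 3 and 4. Globin followed it in part: Hbb-b1, a hemoglobin chain of red cells, was at 342, 137, 31.8, 78 and 35.3 FPKM in injured and 74.4, 49.5, 43.2, 35.8 and 38.5 FPKM in control legs, highest in the injured legs of animals 1 and 2. Camp passed without injured leg 3 or 5 (limma, adjusted p = 0.0366 and 0.0351), and all 3 passed in a fit over the 18 groups of the series (limma, adjusted p = 0.00479 for Camp, 0.0234 for Ngp and 0.00458 for Elane). None of the 3 tested red cell markers passed, but with the animal blocked Hbb-b2, another hemoglobin chain, did (limma, adjusted p = 0.003005), as it did with library weights (limma, adjusted p = 0.0092) and without injured leg 5 (limma, adjusted p = 0.0236). Hbb-b1 and Hbb-b2 overlap in the annotation and are nearly identical, so that their reads may be split between them, and whether blood left in the tissue had a part in either was not tested.

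**Figure D3:**
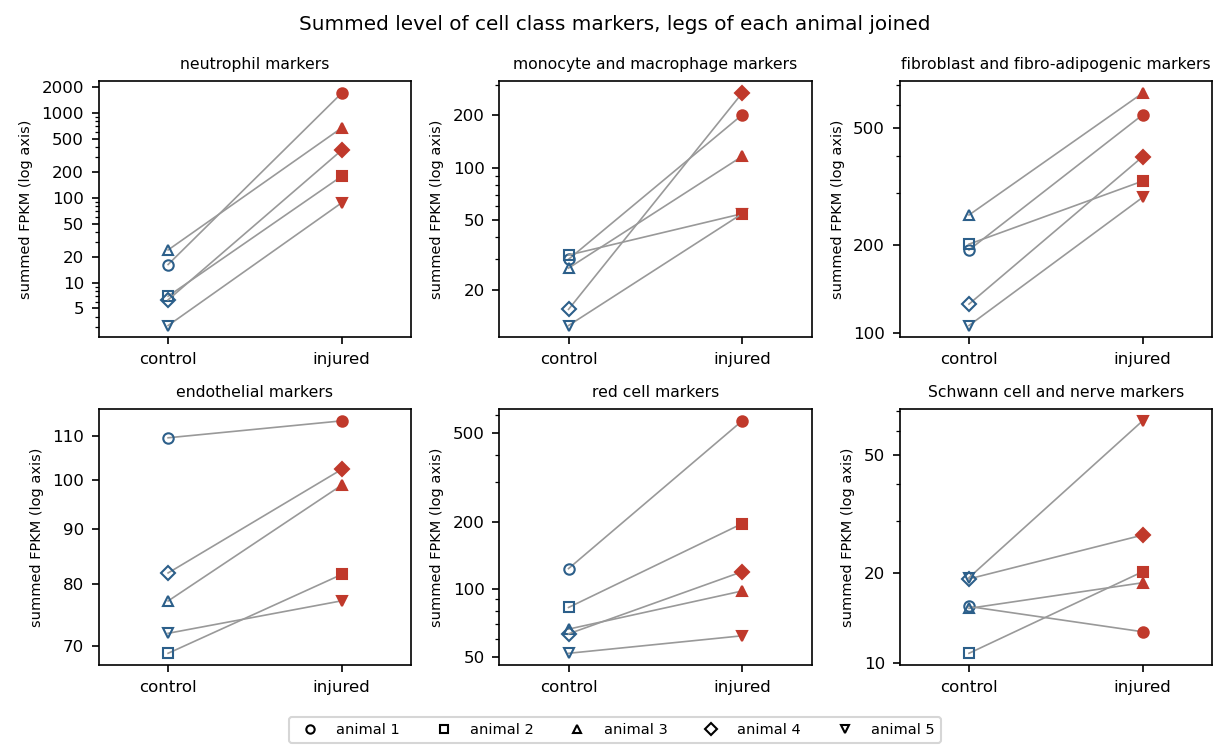
Summed FPKM (y axes, logarithmic) of the listed markers of 6 cell classes in the control and injured leg of each animal, joined by a line, with the symbol shape marking the animal. Neutrophil sums rise from 3.15 to 24.4 FPKM in control legs to 87.7 to 1714 FPKM in injured legs, whereas endothelial sums overlap, at 68.9 to 109.6 and 77.2 to 113.7 FPKM.

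Monocyte and macrophage markers rose with them, 15 of 17 tested and none down (median 2.47, with 16 up when the animal was blocked). Here too, markers with a control mean under 1 FPKM were tested only through their injured legs. Arg1, arginase of wound macrophages, had 6.03, 0.471, 2.41, 11.3 and 1.33 FPKM in injured and 0.0511, 0.0343, 0, 0.0203 and 0.0189 FPKM in control legs (4.45 ± 0.67, limma, adjusted p = 0.000669). Ccr2, the receptor of CCL2 and CCL7 on inflammatory monocytes, was at 4.77, 1.3, 2.63, 13.9 and 1.53 FPKM against 0.494, 0.376, 0.18, 0.136 and 0.105 FPKM (3.35 ± 0.57, limma, adjusted p = 0.00121). In both the injured leg of animal 4 was the highest, as it was for the 2 chemokines, and no leg overlapped. Markers of resident macrophages moved less: Mrc1 rose by 2.08 ± 0.43 (limma, adjusted p = 0.00286) and Cd163 by 1.51 ± 0.38 (limma, adjusted p = 0.00859), while C1qa, a chain of complement C1q, had 6.17, 3.28, 3.41, 5.72 and 1.23 FPKM against 2.02, 2.23, 2.24, 1.24 and 0.552 FPKM and did not pass (limma, adjusted p = 0.0562) unless the animal was blocked (limma, adjusted p = 0.00531) or injured leg 5 left out (limma, adjusted p = 0.00811) or the libraries weighted (limma, adjusted p = 0.00593). Csf1r, the receptor of macrophage colony-stimulating factor, rose by 1.48 ± 0.51 with overlapping groups (limma, adjusted p = 0.0364), and lost its call without any of injured legs 1, 3 and 4 or control legs 4 and 5 (limma, adjusted p = 0.0507 to 0.0875). Adgre1 (listed as Emr1), Cx3cr1 and Itgax stayed below 1 FPKM in both groups. Chi3l3, the chitinase-like protein Ym1 of mouse macrophages and neutrophils, was among the 12 largest rises at 32.6, 3.08, 6.08, 26.6 and 3.03 FPKM and at most 0.0812 FPKM in controls (limma, adjusted p = 9.80e-05).

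Lymphocyte markers were scarce. Of 15 markers 14 were below 1 FPKM in both groups, among them those of T cells (Cd3e, Cd4, Cd8a) and B cells (Cd79a), and the remaining one, Ptprc (CD45), is carried by all leukocytes. Ptprc rose by 2.50 ± 0.55 (limma, adjusted p = 0.00394). Of the adhesion molecules that slow and hold leukocytes, 4 of 6 tested rose (median 2.35): Cd44, Itgb2, Selplg and Icam1. Icam1, the endothelial ligand of leukocyte integrins, was at 2.1, 0.775, 2.31, 2.5 and 0.766 FPKM in injured and 0.737, 0.204, 0.364, 0.307 and 0.204 FPKM in control legs (1.90 ± 0.40, limma, adjusted p = 0.00347), while Sele, Selp and Vcam1 were below 1 FPKM.

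Endothelial identity genes as a class stayed near their control levels, with 1 of 12 tested up and none down, a share close to the 11.7% of all genes. Their median of 0.066 turned to -0.23 and -0.24 under the 2 scalings, where none was called. Pecam1 had 23.3, 14.8, 18.2, 17.1 and 12.6 FPKM in injured and 20.3, 11.8, 15.4, 13.2 and 12.3 FPKM in control legs. The exception, Cldn5, a tight junction protein of vessels, was at 8.88, 5.29, 9.46, 7.62 and 5.87 FPKM against 5.2, 2.94, 3.93, 2.34 and 3.37 FPKM (1.06 ± 0.22, limma, adjusted p = 0.00291), and fell short of 2-fold without injured leg 1 or 3 or control leg 4 (0.98, 0.96 and 0.92). Thbd, thrombomodulin, which keeps the surface of vessels free of clots, stood apart from those genes. It was at 105, 27.2, 128, 65 and 57.4 FPKM in injured and 2.03, 1.36, 2.44, 2.12 and 1.04 FPKM in control legs, without overlap (5.21 ± 0.37, limma, adjusted p = 8.02e-06).

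Thbd belongs to the coagulation and plasminogen list, of which 9 of 13 tested members rose and none fell (median 1.79). Plaur, the urokinase receptor, had 6.01, 1.11, 7.9, 6.59 and 2.01 FPKM against 0.237, 0.165, 0.0899, 0.0433 and 0.121 FPKM and rose by 4.11 ± 0.50 (limma, adjusted p = 0.000217) and Plau, urokinase itself, by 1.79 ± 0.38 (limma, adjusted p = 0.00365). Serpina3n, an acute phase protease inhibitor, was at 58.9, 16.2, 86.9, 18.8 and 15 FPKM in injured and 1.22, 0.334, 2.55, 0.355 and 0.191 FPKM in control legs (5.37 ± 0.66, limma, adjusted p = 0.000231). In each of these genes injured legs 1, 3 and 4 were above injured legs 2 and 5, in Serpina3n only narrowly for leg 4. F3, tissue factor, which starts clotting, rose by 1.20 ± 0.39 but its groups overlapped (limma, adjusted p = 0.029), and the call was lost without any of injured legs 1, 3 and 4 or control legs 4 and 5 (limma, adjusted p = 0.0667 to 0.0713).

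Of 23 tested matrix remodeling genes 18 rose and none fell (median 1.81). Timp1, an inhibitor of matrix metalloproteinases (chrX:20447292-20451863), had 65, 15.2, 45.7, 90.3 and 18.9 FPKM in injured and 0.483, 0.259, 0.516, 0.268 and 0.322 FPKM in control legs (6.37 ± 0.44, limma, adjusted p = 7.00e-06). Mmp3, stromelysin 1, was at 10.6, 3.52, 8.2, 13.4 and 3.87 FPKM against 0.0813, 0.0545, 0.317, 0.0322 and 0.015 FPKM (5.31 ± 0.43, limma, adjusted p = 2.22e-05). In both, injured leg 4 was the highest and injured leg 2 the lowest, and no leg overlapped. Lox, which crosslinks collagen, rose by 4.29 ± 0.59 (limma, adjusted p = 0.000421) and Adamts4, which cleaves proteoglycans, by 4.43 ± 0.35 (limma, adjusted p = 1.78e-05). Timp4, the inhibitor that adult muscle itself expresses, was not on the list and went the other way, from 15.8, 21.2, 14.3, 17.6 and 15.9 FPKM in control legs to 5.2, 11.3, 6.47, 5.33 and 6.33 FPKM in injured legs (-1.33 ± 0.20, limma, adjusted p = 0.000605).

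The collagens behind that matrix moved less and less surely. Of 14 tested chains 7 rose, with a median of 0.94, but 1 was called under either scaling, 1 without injured leg 1, 4 without injured leg 3 and 4 without control leg 4. Col1a1 had 18.5, 6.21, 18.8, 4.45 and 3.14 FPKM in injured and 3.67, 4.11, 3.51, 1.24 and 1.44 FPKM in control legs, in which injured leg 5 was below control legs 1, 2 and 3 (limma, adjusted p = 0.0283). Its call was lost without injured leg 1 or 3 or control leg 4 or 5 (limma, adjusted p = 0.0644 to 0.0703). Fibroblast and fibro-adipogenic markers as a class had 8 of 14 up (median 1.44). Pdgfra, the receptor that marks fibro-adipogenic progenitors, was at 4.46, 1.76, 4.78, 4.18 and 1.64 FPKM against 0.755, 0.938, 1.16, 0.554 and 0.358 FPKM (1.97 ± 0.36, limma, adjusted p = 0.00169), while Cd34, which these cells share with endothelium, had 16.8, 16.2, 14.2, 15.6 and 11.6 FPKM against 14.7, 15.4, 13.5, 7.85 and 8.8 FPKM and did not pass. Complement, much of it made by the same cells and by macrophages, had 10 of 15 up (median 1.51), among them C3, the central component, at 7.85, 4.78, 9.45, 8.39 and 3.33 FPKM against 0.96, 1.2, 2.22, 0.999 and 0.448 FPKM (2.49 ± 0.37, limma, adjusted p = 0.000636).

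Few markers of the remaining cell classes passed. Over all tested genes 11.7% rose and 0.52% fell, so lists of 5 to 9 tested markers could hold none at those shares. None of 8 adipocyte, 5 Schwann cell and 9 smooth muscle and pericyte markers passed (medians 0.13, 0.35 and -0.23, of which the adipocyte median turned negative under both scalings and the Schwann cell median under quantile scaling), although injured leg 5 stood apart in myelin genes: Mbp, myelin basic protein, had 1.6, 4.26, 2.15, 5.76 and 20.3 FPKM in injured and 3.52, 2.42, 3.32, 4.62 and 5.47 FPKM in control legs. The summed level of the smooth muscle and pericyte list was 1105 to 1528 FPKM in injured and 874 to 1039 FPKM in control legs, without overlap, most of it from Des, desmin, which muscle fibers also express (0.42, short of 2-fold). In the same list Myh11, the myosin of smooth muscle, was at 0.995, 1.16, 0.907, 1.06 and 0.857 FPKM against 2.41, 1.61, 1.26, 2.35 and 1.85 FPKM (-0.83), short of 2-fold but past it under both scalings (-1.26 and -1.13), where it passed as lower. Of 9 epidermis markers 8 were below 1 FPKM, the keratins included. Sbsn, suprabasin, was the exception at 2.36, 0.913, 0.945, 1.35 and 0.872 FPKM against 0.368, 0.605, 0.70, 0.188 and 0.299 FPKM (1.38 ± 0.34, limma, adjusted p = 0.00771). The tissue itself matched its label as skeletal muscle in all 10 legs, with Acta1, skeletal actin, at 8318 to 11099 FPKM in injured and 8975 to 12090.1 FPKM in control legs.

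Metallothioneins, small proteins that bind zinc and copper, rose strongly and to high levels. Of 11 tested genes for metallothioneins and zinc transport 7 rose (median 1.83). Mt2 was at 2019, 968, 2358, 1627 and 1151 FPKM in injured and 135, 51.9, 218, 12.3 and 17.6 FPKM in control legs (4.92 ± 0.70, limma, adjusted p = 0.000487). Mt1 was at 1542, 680.4, 2009.8, 1168 and 846 FPKM against 129, 63.5, 201, 32.4 and 40.2 FPKM (3.98 ± 0.48, limma, adjusted p = 0.000206). Injured leg 3 was the highest in both and control leg 3 the highest of the controls, with the groups apart. Mt3, known mainly from brain, was at 3.39 to 22.3 FPKM in injured and 0.227 to 0.889 FPKM in control legs (4.29 ± 0.45, limma, adjusted p = 9.39e-05). The zinc importer Slc39a14 was at 25.4, 7.21, 29.8, 9.46 and 8.11 FPKM against 2.45, 1.35, 3.89, 2.13 and 1.75 FPKM (2.56 ± 0.42, limma, adjusted p = 0.000942), and Slc39a10 rose by 2.24 ± 0.27 (limma, adjusted p = 0.000228). The exporter Slc30a1 and the zinc sensor Mtf1, which switches metallothionein genes on, had differences of 0.15 and 0.27, both negative under the scalings.

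The promoters of Mt1 and Mt2 are shown for their metal response elements, the motif that MTF1 reads. Each is the 250 bases before the RefSeq start on the plus strand of chromosome 8 (GRCm38.p6), 5′ to 3′, with TGCACNC or TGCGCNC on either strand in capitals.
Mt1, chr8:94178839-94179088: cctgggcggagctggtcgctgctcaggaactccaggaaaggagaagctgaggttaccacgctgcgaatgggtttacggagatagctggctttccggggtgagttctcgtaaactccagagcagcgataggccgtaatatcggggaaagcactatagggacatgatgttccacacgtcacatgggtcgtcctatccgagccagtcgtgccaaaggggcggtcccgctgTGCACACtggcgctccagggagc
Mt2, chr8:94172368-94172617: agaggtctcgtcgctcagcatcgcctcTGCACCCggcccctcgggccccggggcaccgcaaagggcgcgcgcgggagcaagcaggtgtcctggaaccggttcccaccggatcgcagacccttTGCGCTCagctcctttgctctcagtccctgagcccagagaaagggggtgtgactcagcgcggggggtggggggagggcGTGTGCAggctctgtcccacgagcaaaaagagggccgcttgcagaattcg
In these windows Mt1 held 1 match, 23 bases before the start, and Mt2 held 3, at 223, 128 and 50 bases. Bases past the annotated start were not searched, so these are no counts of all the elements of either gene. So short a motif is common: 7032 of 32851 promoters (21.4%) have a match in this window, as do 5 of the 10 list members with a promoter, among them Slc30a1 and Slc30a4, which did not pass the test.

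Genes of the oxidative stress program, many of them targets of the factor NRF2, rose in 8 of 19 cases and fell in none (median 0.95). Hmox1, heme oxygenase 1, which breaks down heme, was at 96.6, 30.3, 63.5, 58.7 and 42.4 FPKM in injured and 2.95, 2.14, 3.74, 2.27 and 4.25 FPKM in control legs (4.14 ± 0.29, limma, adjusted p = 7.00e-06). Srxn1, sulfiredoxin, was at 219.8, 50.0, 191, 211 and 131 FPKM against 13.9, 8.79, 18.7, 10.6 and 14.1 FPKM (3.47 ± 0.37, limma, adjusted p = 9.90e-05). Both groups stayed apart in each gene, with injured leg 2 the lowest. Txnrd1, thioredoxin reductase, rose by 1.92 ± 0.22 (limma, adjusted p = 0.000138) and Nfe2l2, the gene of NRF2, by 1.36 ± 0.19 (limma, adjusted p = 0.000421). The bulk antioxidant enzymes did not follow: Sod1, superoxide dismutase, had 190.4, 203, 181, 171 and 191 FPKM against 192, 182, 197, 163 and 173 FPKM, and Cat, catalase, 19.5, 30.0, 30.9, 38.9 and 32.9 FPKM against 30.3, 28.1, 33.7, 39.5 and 32.4 FPKM. The promoter of Srxn1 carried TGANTCA, the core shared by AP-1 and antioxidant response elements, at 102 and 45 bases before the start, in capitals in its 120 bases on the plus strand of chromosome 2 (GRCm38.p6).
Srxn1, chr2:152105404-152105523: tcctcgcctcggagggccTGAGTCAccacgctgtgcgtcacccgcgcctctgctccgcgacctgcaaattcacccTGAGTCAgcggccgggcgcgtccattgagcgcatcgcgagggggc
A match was found in 2 of the 15 list members with a promoter (Osgin1 and Srxn1) and in 1120 of 32851 promoters (3.41%).

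Of 20 tested heat shock genes 6 rose and none fell (median 0.51), against 11.7% and 0.52% of all tested genes. Those that rose were mostly the small heat shock proteins and inducible members. Hspb1, a small heat shock protein of stressed fibers, was at 321, 131, 390.0, 415 and 288 FPKM in injured and 54.3, 40.3, 47.6, 43.4 and 42.8 FPKM in control legs (2.66 ± 0.26, limma, adjusted p = 6.54e-05), and Hspb8 rose by 1.87 ± 0.31 (limma, adjusted p = 0.000995). Cryab, alpha B-crystallin, rose by 1.30 ± 0.41 with overlap, its control legs 1 and 2 standing above the other controls as in Csrp3 (limma, adjusted p = 0.0234), a call lost without any of injured legs 1 and 4 or control legs 3, 4 and 5 (limma, adjusted p = 0.0531 to 0.0594). Hspa1a and Hspa1b, the inducible HSP70 genes, are nearly identical, so that their reads may be split between them: they were at 0.619 to 4.05 and 0.575 to 3.24 FPKM in injured legs. The mitochondrial chaperone Hspd1 had a difference of -0.0088. Of 19 genes of the unfolded protein and integrated stress responses 10 rose (median 1.02; 6 and 4 under the scalings). Ppp1r15a (GADD34), which restarts translation after stress, was at 147, 28.4, 72.9, 83.8 and 23.6 FPKM against 8.83, 9.93, 17.3, 7.69 and 10.9 FPKM (2.43 ± 0.45, limma, adjusted p = 0.00168), and the serine synthesis enzyme Psat1 rose by 3.19 ± 0.49 (limma, adjusted p = 0.00074).

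Sensors of tissue damage and their signal relay rose in 7 of 14 tested cases and fell in none (median 1.14). Myd88, the adaptor shared by most Toll-like receptors and by the IL-1 receptor, was at 19.4, 12.1, 23.7, 18.6 and 12.7 FPKM in injured and 2.09, 1.31, 2.05, 1.47 and 1.42 FPKM in control legs (3.27 ± 0.20, limma, adjusted p = 2.70e-06). Its 5 injured legs lay within a narrow range for so large a change. Rela, a subunit of NF-kappa B, rose by 1.67 ± 0.20 (limma, adjusted p = 0.00023) and Tlr4, the receptor of endotoxin and of several alarm signals, by 2.14 ± 0.35 (limma, adjusted p = 0.000921). Of 14 interferon-responsive genes 3 rose (median 0.67), against 11.7% of all tested genes: Irf9, Isg15 and Oasl2. Under quantile scaling 1 did. Irf9, a DNA-binding factor of type I interferon signaling, was at 5.59, 4.81, 6.2, 5.6 and 5.46 FPKM against 1.99, 1.43, 1.85, 1.51 and 1.54 FPKM (1.68 ± 0.12, limma, adjusted p = 7.00e-06), whereas Ifit1 had 1.15, 0.831, 0.928, 1.01 and 1.96 FPKM against 0.632, 0.613, 0.802, 0.547 and 0.71 FPKM, short of 2-fold.

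Membrane repair genes rose in 10 of 19 cases (median 1.07), with none down. Dysf, dysferlin, which fuses vesicles to torn membranes, was at 13.6, 9.63, 15.2, 19.5 and 15.8 FPKM in injured and 4.22, 3.93, 4.39, 5.08 and 5.01 FPKM in control legs (1.65 ± 0.16, limma, adjusted p = 6.54e-05). Anxa2, a calcium-dependent annexin of the repair cap, was at 86.7, 26.7, 72.5, 135 and 32.6 FPKM against 13.9, 10.7, 12, 8.83 and 7.1 FPKM (2.53 ± 0.39, limma, adjusted p = 0.000796). Dysf varied less than 3-fold among the injured legs and Anxa2 more, with animal 2 lowest and animal 4 highest in both. Cav3, the caveolin of muscle, rose by 1.16 ± 0.19 (limma, adjusted p = 0.000987; 0.996 without injured leg 4), and Trim72 (MG53), which nucleates repair, was 0.97 higher with the groups apart, just short of 2-fold (limma, adjusted p = 8.91e-05) though past it without injured leg 1, injured leg 2 or control leg 3 (1.01, 1.02 and 1.01) and with library weights (1.00). Of 24 genes for the actin cytoskeleton and targets of SRF 16 rose (median 1.21; 9 and 8 under the scalings), led by the tubulin Tubb6 at 144, 28.5, 128, 132 and 62.4 FPKM against 7.56, 5.31, 10.6, 7.22 and 6.64 FPKM (3.52 ± 0.40, limma, adjusted p = 0.000137). The smooth muscle members Acta2, Tagln and Myl9 had differences of -0.23, -0.50 and -0.67.

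Genes linked to denervated fibers divided. Runx1, a transcription factor that fibers switch on when they lose their nerve, was at 21, 3.46, 11, 12.8 and 4.47 FPKM in injured and 0.146, 0.155, 0.246, 0.128 and 0.128 FPKM in control legs (5.08 ± 0.42, limma, adjusted p = 2.53e-05). Its injured leg 2 was the lowest of the injured, far above every control. Which cells of the muscle carried this RNA was not tested. The list as a whole had 4 of 13 up (median 0.39), against 11.7% of all tested genes. The receptor subunit Chrna1 had 2.01, 2.87, 2.36, 2.38 and 3.78 FPKM against 2.74, 1.62, 2.43, 2.15 and 1.8 FPKM, while Chrng, Myh3 and Ncam1 stayed below 1 FPKM.

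Of the satellite cell and myogenic factors 4 of 11 tested rose (median 0.68), against 11.7% of all tested genes: Myod1, Myf6, Myog and Sdc4. Myod1, a factor that commits cells to muscle, was at 112, 20.8, 56.4, 59.4 and 38.7 FPKM in injured and 18.3, 5.73, 12.4, 8.79 and 9.3 FPKM in control legs (2.28 ± 0.41, limma, adjusted p = 0.00144). Myf6, which mature fibers express, was at 342, 256, 639, 221 and 255 FPKM against 84.6, 63.2, 168, 56.3 and 68 FPKM (1.97 ± 0.33, limma, adjusted p = 0.0011). Animal 3 was the highest in both legs for Myf6 and animal 1 for Myod1. Pax7 and Myf5, which mark satellite cells themselves, were below 1 FPKM in both groups, so that a change in them could not be tested. Among growth factors 8 of 15 rose (median 1.03; 5 under either scaling or without injured leg 4), led by Hbegf, a ligand of the EGF receptor, at 86.4, 15.4, 36.5, 53.3 and 18.4 FPKM against 5.47, 3.62, 5.4, 3.85 and 5.25 FPKM (2.86 ± 0.40, limma, adjusted p = 0.00048), while Igf1 had 8.25, 4.21, 4.11, 4.76 and 4.63 FPKM against 4.65, 1.98, 3.94, 2.64 and 3.66 FPKM and Mstn (myostatin) a difference of -0.073.

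The contractile apparatus itself stayed almost level. Of 25 tested genes 2 rose and none fell, with a median of -0.051 that was -0.36 under upper quartile scaling, where 1 rose and 1 fell. Over all tested genes 11.7% rose and 0.52% fell. Tnnt3, the fast troponin T, had 12207, 13838, 11000.0, 10669 and 14622 FPKM in injured and 11795, 11499.6, 13175, 11875 and 13794 FPKM in control legs. Myh4, the fast myosin of type 2B fibers, was listed at 0 in injured legs 1, 2 and 5 and in control leg 5 and between 2240.0 and 3744 FPKM in the others, so no fold is given for it. Myl2, a slow light chain, was at 12.5, 29.4, 34.3, 32.9 and 58.3 FPKM against 5.24, 4.37, 7.4, 8.07 and 2.15 FPKM (2.57 ± 0.41, limma, adjusted p = 0.000866, or 0.145 in the fit over 18 groups), while Myh7, the slow myosin, had 0.629, 0.243, 1.21, 0.365 and 3.21 FPKM against 0.70, 0.266, 0.187, 0.352 and 0.155 FPKM and did not pass, except without injured leg 2 (limma, adjusted p = 0.0462) or with library weights (limma, adjusted p = 0.0215). Injured leg 5 was the highest of the injured and control leg 5 the lowest of the controls in both. Of 18 calcium handling genes 1 rose (Atp2a2, the slow calcium pump, 1.23 ± 0.17, limma, adjusted p = 0.000419) and 1 fell (Casq2, -1.40 ± 0.40, limma, adjusted p = 0.0159), with a median of 0.025 that was -0.14 and -0.29 under the scalings.

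Energy metabolism genes differed by little, mostly downward. Of 24 oxidative phosphorylation genes none was called, but all 5 injured legs were below all 5 control legs for 11 of them, against 3.12% of all tested genes, and the median was -0.30, or -0.33 and -0.62 under the scalings. Cox7a1, a muscle subunit of cytochrome oxidase, had 1008, 1109, 1009.5, 1221 and 938 FPKM in injured and 1547, 1617, 1341, 1334 and 1382 FPKM in control legs (-0.45 ± 0.088, limma, adjusted p = 0.00231). Of 25 genes for fatty acid use 3 rose, 2 fell and 10 had all injured legs below (median -0.41), against 11.7%, 0.52% and 3.12% of all tested genes. The count of rises is thus near the share over all genes. The 2 that fell were G0s2, an inhibitor of fat breakdown, and Ppara, the nuclear receptor that drives fatty acid oxidation. Ppara was at 0.736, 1.12, 0.983, 0.88 and 1.03 FPKM against 2.29, 2.76, 2.68, 3.64 and 2.41 FPKM (-1.44 ± 0.16, limma, adjusted p = 0.000108). G0s2 fell by 2.29 on the log2 scale, the largest fall of any gene whose groups did not overlap (limma, adjusted p = 0.00137). The fatty acid transporter Cd36 was lower in every injured leg, 55, 72.7, 78.4, 68.3 and 67.9 FPKM against 139.9, 106, 128, 123 and 93.5 FPKM, by -0.78, short of 2-fold except under upper quartile scaling, where it passed (-1.09). Angptl4, a secreted inhibitor of lipoprotein lipase, rose by 3.52 ± 0.55 (limma, adjusted p = 0.000788).

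Of 26 tested genes for glycolysis and glucose uptake 6 rose and none fell, against 11.7% and 0.52% of all tested genes. Their median was 0.0073, or -0.31 under upper quartile scaling. Slc2a1, the glucose transporter of most cells, was at 20.4, 4.6, 15.9, 12.6 and 7.89 FPKM in injured and 2.33, 1.66, 2.67, 2.53 and 1.93 FPKM in control legs (2.26 ± 0.34, limma, adjusted p = 0.00066). Slc2a4, the insulin-responsive transporter of muscle, was lower in every injured leg, 90.2, 134, 85.2, 74.6 and 139.7 FPKM against 141, 149, 163, 155 and 172 FPKM, by -0.62, short of 2-fold. Hk1 and Pfkp, forms known outside adult muscle, rose by 1.58 ± 0.32 and 1.55 ± 0.27 (limma, adjusted p = 0.00252 and 0.00128), while Pfkm, the muscle form, had a difference of -0.22. Pfkfb4, which sets the pace of glycolysis, was at 80.3, 59.6, 84.1, 66 and 69.7 FPKM against 23.3, 20.9, 28.2, 23.5 and 33.8 FPKM with little spread (1.48 ± 0.14, limma, adjusted p = 4.96e-05). Hypoxia genes had 3 of 15 up (Adm, Hilpda and Hif1a), a count near the 11.7% of all tested genes that rose. It was 5 without injured leg 2 or 5 or control leg 3 or 4. Hif1a was short of 2-fold without injured leg 3 (0.98). Vegfa, a classical hypoxia target, had 43.4, 36.5, 26.9, 35.8 and 29.5 FPKM against 57.9, 46, 39.8, 55 and 37.9 FPKM. In the circadian clock 4 of 16 rose, against 11.7% of all tested genes (median 0.28, or -0.096 and -0.025 under the scalings). Nr1d1 led them at 38.2, 6.34, 8.71, 24 and 5.27 FPKM against 3.16, 3.79, 2.25, 4.89 and 2.39 FPKM (1.91 ± 0.49, limma, adjusted p = 0.0094). But 1 was called as higher under either scaling and 2 without any of injured legs 1 and 3 or control legs 2, 4 and 5.

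Growth arrest and cell death genes were called in part. Gadd45a, a stress sensor that slows the cell cycle, had the smallest adjusted p of all tested genes, with 223, 149.6, 267, 209.5 and 195 FPKM in injured and 23.5, 21.5, 27.3, 22.4 and 26.2 FPKM in control legs (3.09 ± 0.14, limma, adjusted p = 6.52e-07). Its differences within animals 1 to 5 were 3.24, 2.80, 3.29, 3.22 and 2.89, so that animal 2 stood close to the others. Cdkn1a, the CDK inhibitor p21, rose by 2.67 ± 0.72 but control leg 3, at 62.6 FPKM, lay above injured legs 2 and 5 (limma, adjusted p = 0.012). The p53 and CDK inhibitor list had 6 of 16 up (median 0.79) and the cell death list 9 of 20 (median 0.95; 4 under either scaling), with Fas, a death receptor, at 1.65 ± 0.15 (limma, adjusted p = 3.61e-05) and Casp4, an inflammatory caspase, at 2.59 ± 0.29 (limma, adjusted p = 0.000126). Division genes were scarce: 14 of 20 were below 1 FPKM in both groups, among them Mki67, Top2a and Ccnb1, and 3 of the 6 tested rose (Mcm3, Mcm6 and Pcna), or 0 and 1 under the scalings. Pcna fell short of 2-fold without any of injured legs 1, 3 and 4 or control legs 2 and 4 (0.94 to 0.99).

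Genes of growth and protein turnover were called in part. Of 21 ribosome biogenesis genes 19 had all injured legs above all control legs, against 25.1% of all tested genes, yet 5 reached 2-fold and passed (median 0.86; 2 and 1 under the scalings, 9 without injured leg 2). Nop58, a core protein of small nucleolar particles, led them with 38.7, 9.62, 30.7, 33.2 and 16.2 FPKM against 5.86, 4.04, 7.3, 5.2 and 6.34 FPKM (2.0 ± 0.34, limma, adjusted p = 0.00116). Polyamine genes had 6 of 11 up (median 1.17), among them Odc1, which makes putrescine, at 1.56 ± 0.28 (limma, adjusted p = 0.00146) and Sat1, which breaks polyamines down, at 2.55 ± 0.34 (limma, adjusted p = 0.000371). Of the atrophy and autophagy list 5 of 20 rose, or 2 and 1 under the scalings, against 11.7% of all tested genes without scaling. Trim63 (MuRF1), a ubiquitin ligase of wasting muscle, was at 552, 249, 521, 337 and 242 FPKM against 83, 80.3, 153, 76.4 and 88.7 FPKM (1.94 ± 0.27, limma, adjusted p = 0.000409), while Fbxo32 (atrogin-1) had 41.1, 111, 87, 40.7 and 65.6 FPKM against 30.7, 49, 86.3, 38.4 and 31.4 FPKM. None of the 20 proteasome subunits passed (median 0.15, or -0.0082 and -0.16 under the scalings), where 11.7% of all tested genes rose.

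**Figure D4:**
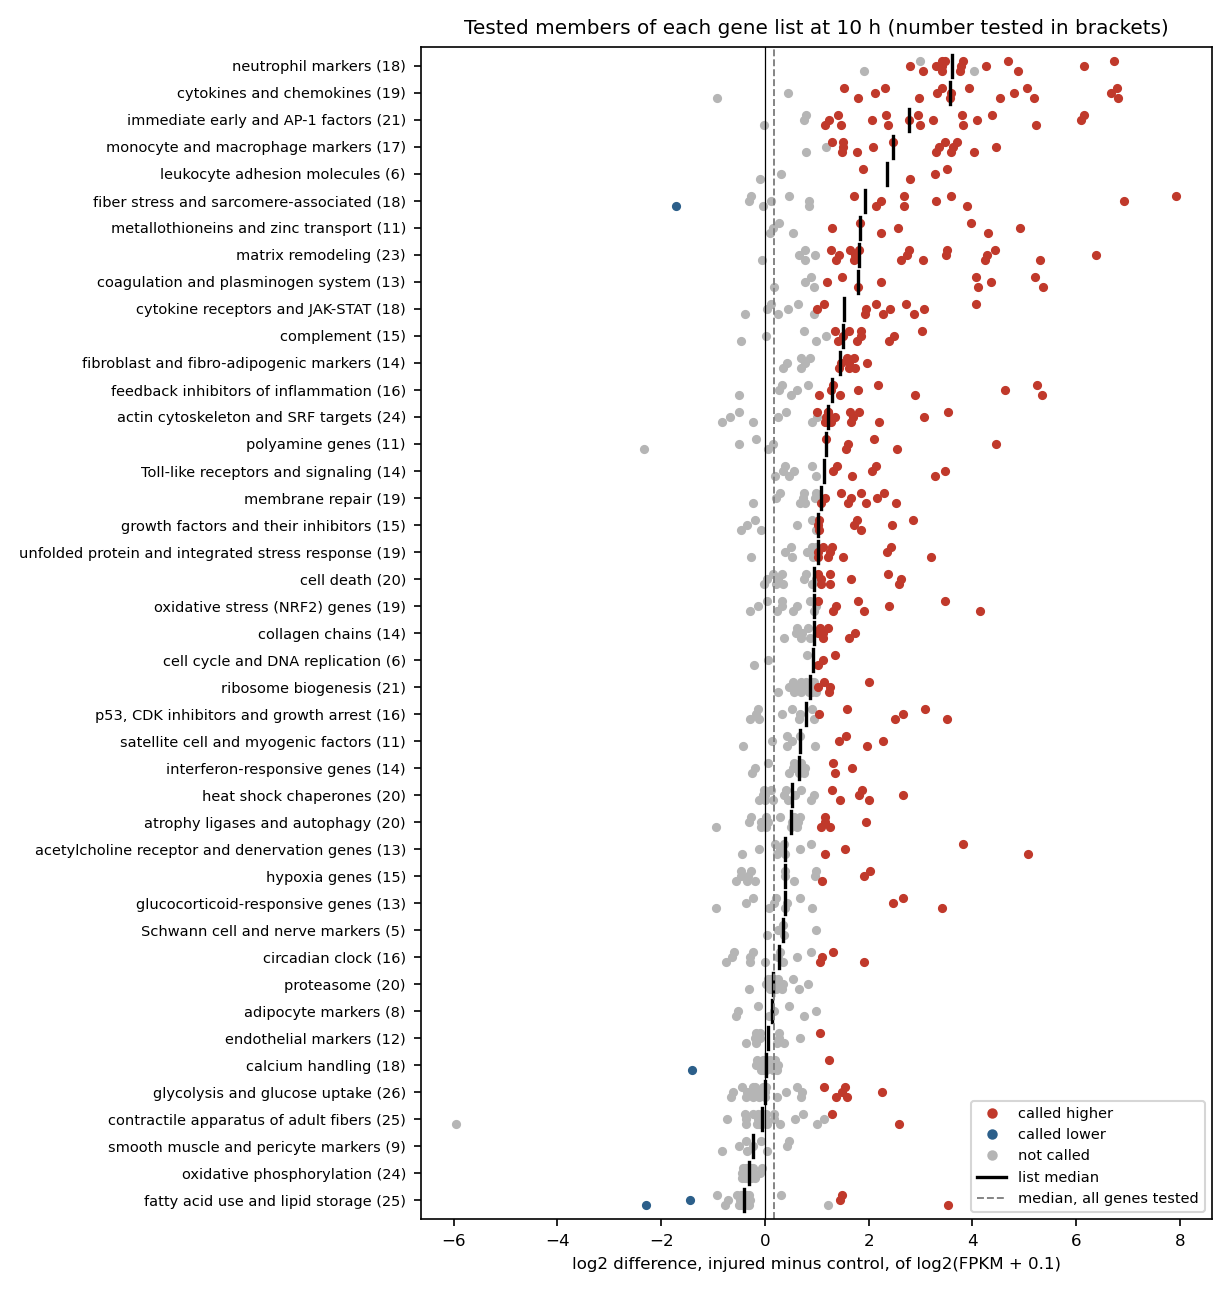
Gene lists (rows) with the log2 difference, injured minus control, of each tested member (x axis). Red points rose, blue points fell and grey points did not pass, a black bar marks the list's median and the dashed line the median of all tested genes. Medians run from -0.41 for fatty acid use to 3.61 for neutrophil markers, against 0.18 over all tested genes.

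Genes that fell were few and their changes small. The other leading falls were Nmb, a bombesin-like peptide, from 3.41, 4.02, 2.65, 2.65 and 1.84 to 1.11, 1.29, 0.916, 0.39 and 0.452 FPKM (-1.77 ± 0.31, limma, adjusted p = 0.00139), and Lrrc30, a leucine-rich repeat protein, from 75.5, 73.3, 168, 83.3 and 72.7 to 11.5, 54.5, 41.2, 28.6 and 51.5 FPKM (-1.44 ± 0.39, limma, adjusted p = 0.0127). In Lrrc30 injured legs 2 and 5 were the nearest to the controls and control leg 3 lay far above the rest. Slc25a29, a mitochondrial carrier of basic amino acids, went from 5.02, 4.92, 5.01, 6.03 and 5.07 to 1.13, 2.02, 1.8, 1.19 and 2.51 FPKM (-1.59 ± 0.20, limma, adjusted p = 0.000231), and Acot11, an acyl-CoA thioesterase, from 1.23, 1.89, 1.77, 2.1 and 1.64 to 0.321, 1.19, 0.423, 0.539 and 1.01 FPKM (-1.31 ± 0.30, limma, adjusted p = 0.00539). Pitx3, Mettl11b, Prima1 and Raver2 complete the 12 largest falls without overlap, at -1.34, -1.30, -1.27 and -1.23.

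The injury effect at 10 h was set against those at 3 h and 24 h in one limma fit over the 3 times. Both comparisons share the 10 h legs, and the 3 h side rests on 2 injured and 3 control libraries. Of 10690 genes the effect was larger at 10 h than at 3 h for 742 (6.94%). It was smaller, meaning lower or more negative, for 39 (0.365%). The count of 742 became 14 after quantile scaling and 31 without control 3 h leg 12. It also fell steeply without injured 3 h leg 11 but not without injured 3 h leg 12. Either choice leaves 1 injured library at 3 h. Against 24 h the effect was larger for 17 (0.159%) and smaller for 11 (0.103%), or 90 and 302 without injured 24 h leg 3. Among the 10 h members, Dysf had an effect 2.27 larger at 10 h than at 3 h (limma, adjusted p = 0.00132), also after quantile scaling (adjusted p = 0.00203, limma). Il6 had an effect 3.96 smaller, on the log2 scale, at 10 h than at 3 h (limma, adjusted p = 0.0192). With 1 library left out at a time, Dysf and Il6 each kept this call in 24 of 25 fits. Of the 12 genes larger than at both times, Tnip2, an inhibitor of NF-kappa B activation, was at 10.3, 7.52, 10.7, 6.35 and 9.39 FPKM in injured and 0.833, 0.702, 1.32, 0.846 and 0.638 FPKM in control legs at 10 h, clear of each other. It exceeded its 3 h and 24 h effects by 1.80 and 1.6 (limma, adjusted p = 0.0131 and 0.0112), and Ptpn2, a phosphatase of JAK and STAT proteins, by 1.94 and 1.39 (limma, adjusted p = 0.00738 and 0.0236). Slc25a29 was the only gene whose effect was more negative than at both times (-1.13 and -1.37; limma, adjusted p = 0.0298 and 0.0283, or 0.0622 and 0.0562 after quantile scaling). Its control legs were higher at 10 h (5.21 FPKM on average) than at 3 h (2.58 FPKM) and 24 h (2.55 FPKM), while its injured legs averaged 1.88, 1.73 and 2.18 FPKM at 3, 10 and 24 h.

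**Figure D5:**
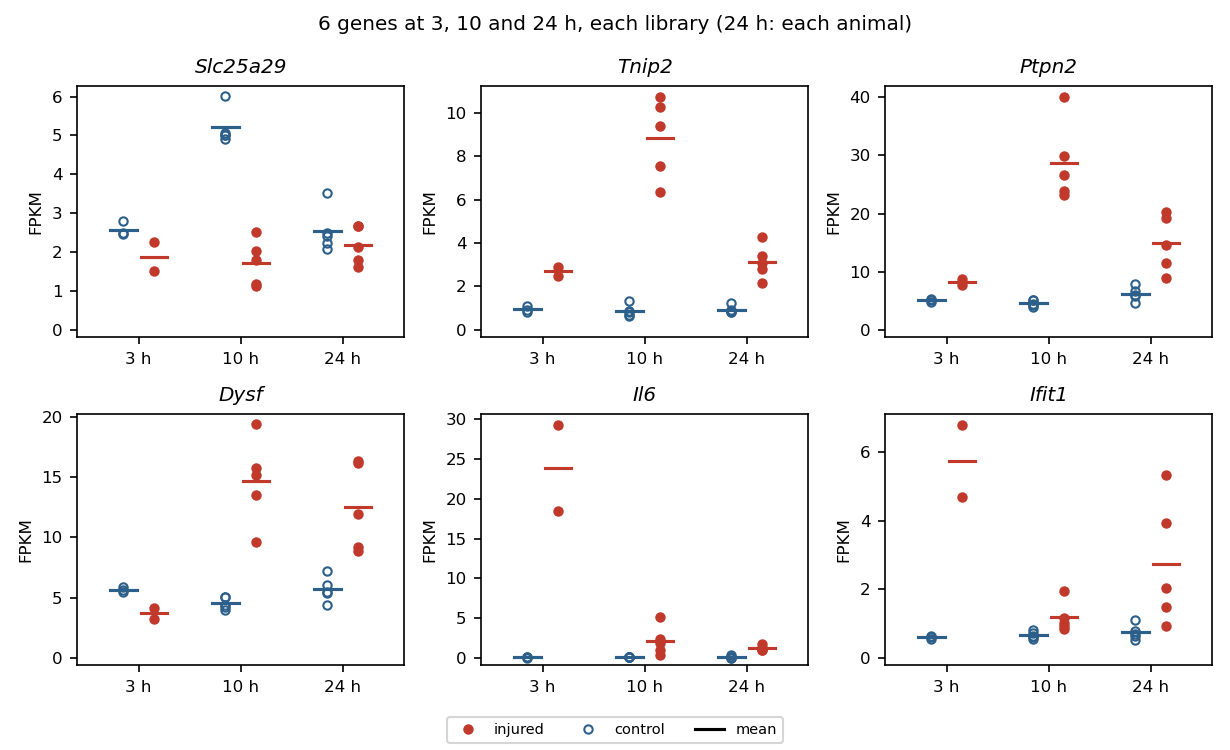
Injured and control FPKM at 3, 10 and 24 h (x axis) for 6 genes, y axes linear, one point a library (at 24 h, an animal) and a bar at each group mean. Il6 has its largest gap between injured and control legs at 3 h, and Tnip2 at 10 h.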

How the data were processed

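Poly-A RNA of TA muscle was sequenced on a Genome Analyzer IIx as strand-specific paired reads. As the study's methods state, the authors aligned reads to mm9 with TopHat, assembled injured and control transcripts separately with Cufflinks, merged them with Cuffmerge and derived FPKM with the Cufflinks suite. The deposited FPKM values per gene were used as they are. The authors also left out replicates that correlated poorly with the others. Separately, 4 further 10 h libraries of the labels have no column in the gene table and are not analysed here. The authors' isoform table was not used, and no sample column of the gene table was left unmapped.

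The 5 injured and 5 control legs at 10 h were compared with limma 3.58.1 in R 4.3.3 (lmFit, eBayes with a trend) on log2(FPKM + 0.1), for genes with a mean of at least 1 FPKM in either group. Calls needed a Benjamini-Hochberg adjusted p under 0.05 and a 2-fold difference. A fold on this scale understates the change of low genes. Equal numbers are legs of the same mouse. Deviations from the group means correlated within a mouse by r = 0.28, -0.03, 0.41, -0.04 and 0.38, and the fit with the animal as a block was an alternative. Without the block, the p-values set a difference against the spread of the legs within each group, with the 10 legs taken as independent. They cover these 5 mice alone. Effects at 3, 10 and 24 h were compared in one fit. In simulated data with 9998 genes the adjusted p alone, in the right direction, recovered 84%, 100%, 98% and 96% of genes changed by 1, 2, 3 and -1.5 on the log2 scale. Alternatives were other pseudocounts, filters and scalings, library weights, a fit over all groups and leaving out each leg. The members and gene lists were chosen with earlier results of these data known. Named genes were the 12 largest rises and falls whose groups did not overlap, leaving out symbols with several loci, and the list members with the largest called differences, the defining markers and members that were not called. A few others were named after their values were seen. RefSeq promoters (GRCm38.p6) were searched on both strands.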

Additional observations from a re-analysis of the deposited data

Results flagged for a closer look

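A gap test was run on 348 groups of 5 legs, 2 for each of 174 named genes. Chance alone passes it in about 1 of 20 groups. In 18 groups (5.17%, near that rate) it set 1 leg apart from the others. In the injured legs these were animal 2 for Jund (2.20 FPKM), Timp4 (11.3 FPKM), Atp2a2 (5.97 FPKM) and G0s2 (21.6 FPKM), animal 4 for Hspd1 (89.2 FPKM) and Myl9 (11.1 FPKM), animal 1 for Igf1 (8.25 FPKM) and Mcm3 (1.73 FPKM) and animal 3 for Fas (12.8 FPKM). In the control legs they were animal 3 for Fos (4.0 FPKM), Runx1 (0.246 FPKM), Trim63 (153 FPKM) and Lrrc30 (168 FPKM), animal 2 for Il1rn (0.0196 FPKM) and Osgin1 (5.52 FPKM), animal 4 for Camp (0.135 FPKM) and Slc25a29 (6.03 FPKM) and animal 5 for Myh4 (0 FPKM). Control leg 3 thus held 4 of these 9 control values, each of them the highest of its group. Whether that is more than chance gives was not tested. For Il1rn and Camp the other control legs were at 0, so that any value above 0 passes the gap test.

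The injury effect at 10 h differed from that at 3 h for 28 named genes in the limma fit over the 3 times. It was larger at 10 h, by the log2 difference given, for the fiber genes Ankrd1 (3.55), Flnc (1.87), Klhl40 (1.85), Hspb1 (1.91), Hspb8 (1.72), Dysf (2.27), Cav3 (1.29) and Trim72 (1.24), and for Runx1 (2.59). It was also larger for the leukocyte genes Arg1 (4.31) and Chi3l3 (4.73), for the signaling genes Stat3 (1.78), Rela (1.24), Tnip2 (1.80), Ptpn2 (1.94) and Fas (1.24), and for Mt3 (3.51), Txnrd1 (1.43), Pfkfb4 (1.4), Nr1d1 (2.30) and Mcm3 (1.46). It was lower, or more negative, at 10 h for Cxcl1 (-2.66), Il6 (-3.96), Ifit1 (-2.37), Hspa1a (-2.04), Hspa1b (-2.83), G0s2 (-2.29) and Slc25a29 (-1.13). Myh4, listed at 0 in some legs and above 100 FPKM in others of the same group, was left out. Of the 28, 6 were still called after quantile normalization, and all 28 had a limma adjusted p under 0.05 with the animal blocked. With 1 library left out at a time, none of the 28 kept its call in all 25 fits. Dysf, Il6, Tnip2 and Ptpn2 kept it in 24, Rela in 14 and G0s2 in 12. Against 24 h the effect was larger for Tnip2 (1.6) and Ptpn2 (1.39) and more negative for Slc25a29 (-1.37). Of these 2 were called after quantile normalization, and all 3 had a limma adjusted p under 0.05 with the block. With 1 library left out at a time, Tnip2 kept this call in 25 of 25 fits, Ptpn2 in 23 and Slc25a29 in 19.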

How the results depend on the processing

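Against 1171 genes higher and 52 lower in injured legs, a pseudocount of 1 gave 720 and 18, a mean of at least 5 FPKM 569 and 28 of 5661 tested, quantile normalization 707 and 195, upper quartile scaling 761 and 162, library weights 1373 and 88, and the adjusted p alone 3523 and 626. A pseudocount of 0.01, no filter (18191 genes tested) and a fit over all 18 groups of the series gave 1227 and 61, 1603 and 65, and 1117 and 46. Leaving out 1 leg gave 1008 to 1371 higher and 35 to 79 lower, with 79 lower without injured leg 2. Blocking by animal gave 1182 and 53, of which 1169 and 52 were shared with the fit without the block, and among the genes named it changed no call other than those of Csrp3, C1qa and Hbb-b2. No gene named in the text and called without the block turned direction under any of these settings. The difference of 735.8 genes above 1 FPKM was 673.65 to 805.65 with 1 leg left out, 749.4 and 650.2 at levels of 0.5 and 5 FPKM, and had an exact sign-flip permutation p of 0.0625 with the legs paired, the smallest possible. The 742 genes with a larger effect at 10 h than at 3 h were 329 with a pseudocount of 1, 14 after quantile normalization, 1220 with the animal blocked and 1 to 1051 with 1 sample left out, and the 39 with a smaller effect were 60 with the block and 1 to 51 with 1 sample left out. Both counts fell steeply without injured 3 h leg 11 but not without injured 3 h leg 12. Either choice leaves 1 injured library at 3 h that is assumed to vary like the other groups. Against 24 h, the 17 larger became 78 after quantile normalization, 116 with the block and 7 to 90 with 1 sample left out, and the 11 smaller became 25 with a pseudocount of 1, 69 after quantile normalization, 107 with the block and 2 to 302 with 1 sample left out. The cause of these shifts was not tested. The files give no read counts, so the depth behind low FPKM values, such as the chemokines of the control legs, is unknown.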
